A study of Mus musculus with 12 samples.

Results

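The 7 genes described here had liver counts that were higher in libraries labelled knockout than in controls: Olig1, Pcdh11x, Vwc2l, Tmigd1, Serpine2, Corin and Cfd. They were named from the counts of these same libraries, with no numeric threshold stated, so their knockout-to-control differences are a description and carry no test. All 7 of 7 were found by symbol among the 24062 genes listed, and 7 of 7 passed the filter on low counts that left 12015 genes.

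The 12 libraries were made from liver RNA of male mice, aged 14 weeks, of a mixed 129SvEV-C57BL/6 background. Every animal carried floxed alleles of Nr5a2, the gene of the nuclear receptor LRH-1. Knockout animals had received AAV8-Cre, Cre recombinase delivered by a serotype of adeno-associated virus with a strong liver tropism, and the controls had no Cre and, according to the series, an AAV8-eGFP vector. The promoter that drives Cre is not given in the sources used here. On a standard diet (SD) there were 3 control and 3 knockout libraries, and on a high-fat diet (HFD, D12492) for 6 weeks there were 4 control and 2 knockout libraries.

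LRH-1 is a transcription factor of hepatocytes that activates genes of bile acid, cholesterol and phospholipid handling. The 7 genes belong to no single pathway and are better known from other tissues. Olig1 is a basic helix-loop-helix transcription factor of the oligodendrocyte lineage, Pcdh11x a neuronal protocadherin, and Tmigd1 an immunoglobulin-domain adhesion protein of kidney and intestinal epithelium. Vwc2l encodes a secreted protein with von Willebrand factor C domains, a domain type found in binders of bone morphogenetic proteins (BMPs). Serpine2 encodes protease nexin-1, a secreted inhibitor of thrombin, urokinase and other serine proteases. Corin is a membrane-bound serine protease that activates atrial natriuretic peptide in the heart, and Cfd is complement factor D (adipsin), the serine protease of the alternative complement pathway that adipocytes secrete.

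RefSeq promoter sequences (GRCm38.p6) were at hand for 5 of the 7 genes, and none was given for Olig1 and Pcdh11x. Because the members include a factor that binds E-boxes, the 250 bases before the start were searched for CANNTG, the core letters that such factors recognise, and for CAAGGNCA, the core of the LRH-1 element, on both strands. Shown are Corin and Cfd, highest in knockouts on HFD, and Tmigd1, high in knockouts on SD. Capitals mark CANNTG.

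Corin, chr5:72504541-72504790, minus strand: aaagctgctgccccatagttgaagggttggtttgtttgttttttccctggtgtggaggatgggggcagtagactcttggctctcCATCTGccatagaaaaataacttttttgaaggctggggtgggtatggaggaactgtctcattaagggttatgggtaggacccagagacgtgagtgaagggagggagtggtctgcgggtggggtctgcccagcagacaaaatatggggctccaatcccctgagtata
Cfd, chr10:79890603-79890852, plus strand: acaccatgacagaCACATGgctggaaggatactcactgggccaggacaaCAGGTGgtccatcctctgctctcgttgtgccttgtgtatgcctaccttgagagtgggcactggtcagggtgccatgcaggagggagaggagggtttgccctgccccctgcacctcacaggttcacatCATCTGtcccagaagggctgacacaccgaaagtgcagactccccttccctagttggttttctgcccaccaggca
Tmigd1, chr11:76890870-76891119, plus strand: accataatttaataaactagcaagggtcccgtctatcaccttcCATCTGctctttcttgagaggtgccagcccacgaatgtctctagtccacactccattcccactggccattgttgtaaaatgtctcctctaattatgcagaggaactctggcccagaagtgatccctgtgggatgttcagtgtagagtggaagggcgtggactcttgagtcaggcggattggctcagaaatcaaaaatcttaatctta

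The letters CANNTG stood 3 times in the Cfd window, 3 times in that of Vwc2l, and 1 time each in those of Corin, Serpine2 and the first Tmigd1 start. The second Tmigd1 start had 0. Of 32851 promoter windows of that length, 66.2% held the letters. CAAGGNCA was in 0 of these 6 windows and in 5.53% of all windows. Base composition differed widely, from 40.8% G and C with 3 CpG in the Vwc2l window to 78.8% with 34 CpG in the Serpine2 window, around a median of 52.4% and 6 CpG over all windows. Alone among the windows of the members, that of Serpine2 overlaps an annotated exon, of Serpine2 itself.

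The SD libraries held 2371167 to 3404570 counts each and the HFD libraries 7463792 to 10875478. Levels below are CPM, counts scaled by edgeR's normalized library size. A count of 0 allows up to 0.360 CPM over the SD controls (3 counts over the group, covering counting error only), and up to 1.04 CPM in the single library SD knockout 3. Hepatocyte markers were detected in every group (10 of 10), with Fgb and Ahsg lower in SD knockouts and Ttr higher in HFD knockouts. Without SD control 2, SD control 3, SD knockout 2 or SD knockout 3, 0 of the 10 passed on SD. On HFD 0 passed with only the groups compared or the replicate block. With no filter 2 were higher there, and without HFD control 1, 1 was higher and 1 lower. The log2 fold change of Ttr was 0.55 without HFD knockout 1 and 0.75 without HFD knockout 2. Nr5a2 itself stood at 74.8 to 85.8 CPM in SD controls and 94.7 to 100.1 CPM in SD knockouts, and at 64.3 to 77.0 and 69.1 to 84.5 CPM on HFD. Counts over the whole gene therefore do not show the deletion, and each direction below rests on the labels. Of 14 classic LRH-1 targets, 9 were lower in SD knockouts and 11 in HFD knockouts, with 0 higher. The HFD count was 7 without either HFD knockout and 8 with only the groups compared, and without SD control 1 there was 1 higher on SD. Over all genes tested, 4.38% passed in SD knockouts (1.44% higher and 2.94% lower) at an adjusted p under 0.05 (edgeR, Benjamini-Hochberg), and 2.7% in HFD knockouts (1.04% higher and 1.66% lower), around a median log2 fold change of 0 and -0.0074. The gene lists below are read against these shares. The labels give libraries separate identifiers without stating separate mice, so p-values measure the spread between libraries.

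HFD control 1 stood apart among the controls for these genes. It was the highest of the 4 HFD controls for 7 of 7 members, while over all genes tested it was the highest for 25.3%. Its level was 1.94 times the mean of the other 3 controls for Serpine2, 2.03 times for Tmigd1, 2.66 for Olig1, 4.23 for Pcdh11x, 5.40 for Vwc2l, 6.84 for Cfd and 9.11 for Corin. The same held for genes that had no part in the choice. Among the 167 other genes higher in SD knockouts, a contrast of SD libraries in a fit whose filter, normalization and spread are shared with the HFD libraries, HFD control 1 was the highest HFD control for 90 (53.9%), against 20, 38 and 19 for HFD controls 2, 3 and 4. Among the 353 lower genes it was the lowest control for 185 (52.4%), against 30.1% over all genes. HFD results are therefore given with and without it.

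**Figure D1:**
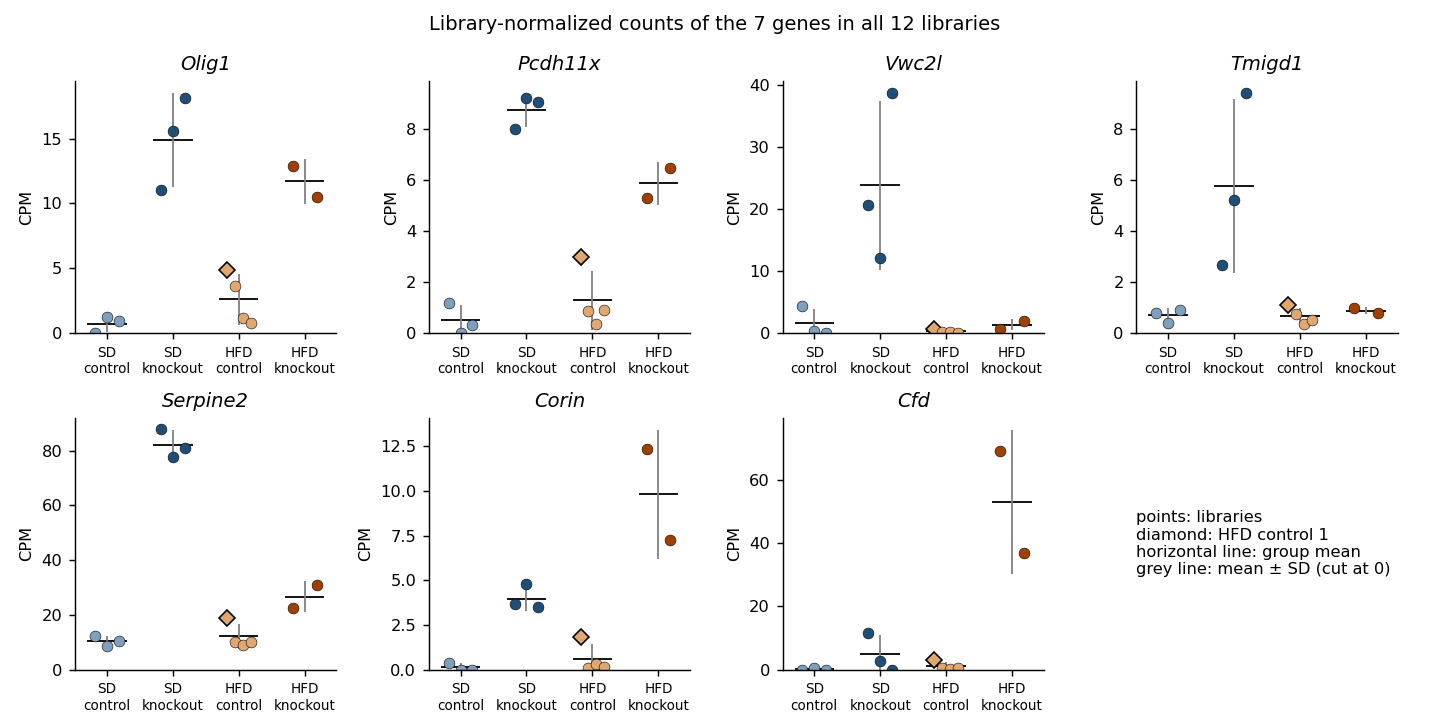
CPM of each member (y axis, from 0, a separate scale per panel) in the 12 libraries by group (x axis). Points are libraries, the diamond is HFD control 1, black lines are group means and grey lines the mean ± SD. Vwc2l, Tmigd1 and Serpine2 are highest in SD knockouts, Corin and Cfd in HFD knockouts, and Olig1 and Pcdh11x are high in both.

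The transcription factor gene Olig1 was near the detection limit in SD controls, with 0, 1.21 and 0.916 CPM, and reached 11.0, 15.6 and 18.1 CPM in SD knockouts. The log2 fold change was 4.33 (SE 0.73), and without SD control 1 it was 3.81. On HFD it stood at 4.90, 3.60, 1.14 and 0.780 CPM in controls and at 12.9 and 10.5 CPM in knockouts (2.10, SE 0.45). The knockouts were above every control on both diets, with HFD controls 1 and 2 nearest to them. Without HFD control 1 the difference on HFD was 2.66, and without HFD control 4 it was 1.83. Knockout levels on the 2 diets lay close together, at 14.9 ± 3.61 CPM on SD (SD, n = 3) and 11.7 ± 1.72 CPM on HFD (n = 2), and their ranges overlapped.

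Olig2, the neighbour of Olig1 in the genome and its partner in the oligodendrocyte lineage, was at 0 in all SD controls and reached 0.667, 0 and 1.39 CPM in SD knockouts. On HFD it was at 0 in 3 controls, 0.0907 CPM in HFD control 1, and 0.417 and 0 CPM in the knockouts. Of 14 oligodendrocyte lineage markers 5 were tested and 0 passed on either diet with edgeR or DESeq2 (unadjusted p under 0.05 for 1 on SD and 0 on HFD with edgeR). Their summed level was 25.7 to 31.2 CPM in SD controls and 32.7 to 41.7 CPM in SD knockouts, and 36.5 to 43.7 and 45.6 to 47.4 CPM on HFD, so that knockouts lay above controls on both diets. The defining markers Mog and Opalin had no count in any library, nor did Sox10 in either knockout group. The part of such cells in the Olig1 level was not tested. Of 10 tested basic helix-loop-helix and neural transcription factors 0 passed in the main edgeR fit on either diet (2 and 2 at an unadjusted p under 0.05). On SD 2 were lower with the replicate block, and 1 with no filter, only the groups compared, DESeq2 or without SD control 1. On HFD 2 were lower without HFD control 1, 1 with no filter or the replicate block, and 0 with DESeq2. The median log2 fold change of the 10 was 0.26 on SD and -0.15 on HFD.

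Pcdh11x went with Olig1 in being high in the knockouts of both diets. It stood at 1.17, 0 and 0.305 CPM in SD controls and 8.00, 9.21 and 9.06 CPM in SD knockouts (log2 fold change 4.12, SE 0.79). On HFD it was at 2.99, 0.869, 0.343 and 0.910 CPM in controls and 5.28 and 6.47 CPM in knockouts (2.11, SE 0.50). The groups did not overlap on either diet. The controls on SD held 4 counts in all, 3 of them in SD control 1, and without that library the ratio of summed counts was 50.3 (exact 95% interval 8.75 to 2013). Without SD control 3 that ratio was 14.7 (exact 95% interval 4.83 to 72.8). Without SD control 2 the log2 fold change on SD was 3.62. Without HFD control 1 the log2 fold change on HFD was 3.05, and without HFD control 3 it was 1.80. Of 12 tested protocadherins and cadherins 0 passed in the main edgeR fit on either diet (2 and 1 at an unadjusted p under 0.05). On SD edgeR called 1 higher with only the groups compared or with the replicate block. DESeq2 called 1 lower on SD and 0 on HFD. The median log2 fold change of the 12 was 0.09 on SD and 0.15 on HFD.

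Vwc2l was far lower in HFD knockouts than in SD knockouts. It was at 4.30, 0.402 and 0 CPM in SD controls and at 20.7, 12.01 and 38.7 CPM in SD knockouts (log2 fold change 4.01, SE 0.73). On HFD the controls stood at 0.635, 0.124, 0.229 and 0 CPM and the knockouts at 0.695 and 2.01 CPM (2.25, SE 0.98). The HFD groups missed each other narrowly, HFD knockout 1 lying just above HFD control 1, and both HFD knockouts were below SD control 1. Of the 12 counts over SD controls 11 came from SD control 1, and without it the ratio was 139.8 (exact 95% interval 24.8 to 5550). Without HFD control 1 the HFD controls held 3 counts against 23, a ratio of 11.6 (exact 95% interval 3.51 to 60.4). Of those 23 counts 18 came from HFD knockout 2, and without it the log2 fold change on HFD was 1.26. On SD the value was 3.32 without SD control 3.

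Vwc2l is a relative of Vwc2, which had at most 0.400 CPM in any library. Among 32 tested genes of BMP and activin signaling 0 passed on SD in the main edgeR fit (10 at an unadjusted p under 0.05), with a median log2 fold change of 0.10. On SD 3 were higher with no filter, 2 with only the groups compared, and 1 with DESeq2 or without SD control 2. Without SD control 1, 1 was lower. On HFD the median was -0.0048 and 1 rose, the ligand gene Bmp4, with 4.57 ± 0.612 CPM (SD, n = 4) in controls against 9.72 ± 0.775 CPM (n = 2) in knockouts (log2 fold change 1.09, SE 0.23, edgeR adjusted p = 0.0159). That call ended without either HFD knockout (adjusted p up to 0.119). On SD Bmp4 stood at 5.08, 9.24 and 4.88 CPM in controls and 11.0, 11.6 and 14.6 CPM in knockouts (adjusted p = 0.0512).

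The adhesion gene Tmigd1 was higher in knockouts on SD and not on HFD. It stood at 0.781, 0.402 and 0.916 CPM in SD controls and 2.67, 5.20 and 9.40 CPM in SD knockouts (log2 fold change 2.96, SE 0.63, and 2.40 without SD knockout 3). On HFD the controls had 1.09, 0.745, 0.343 and 0.520 CPM and the knockouts 0.973 and 0.781 CPM (0.32, SE 0.60). The HFD groups overlapped, since HFD control 1 was above both knockouts. Without HFD control 1 both knockouts were above the remaining 3 controls, and the difference was 0.69. Without HFD control 3 the difference was 0.11. For this gene the description as switched on in knockouts holds on SD alone. Kidney tubule markers, among them Umod, Kap and Aqp2 with no count in any group, summed to 0.305 to 1.61 CPM in SD controls and 2.00 to 2.67 CPM in SD knockouts, and to at most 3.20 CPM in any library. None of the 10 had enough counts to be tested. Enterocyte markers summed to 493 to 559 CPM in SD controls and 456 to 479 CPM in SD knockouts. Of the 4 tested 1 rose and 1 fell on SD (Apoa4 and Anpep). Without SD control 3 neither passed (adjusted p = 0.0539 and 0.0829), and the Anpep call ended in 3 of 11 alternatives (up to 0.111). On HFD 0 passed in the main edgeR fit (2 at an unadjusted p under 0.05), and 1 was lower with DESeq2, no filter or the replicate block.

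Among 18 tested genes of immunoglobulin-domain junction proteins and their partners, 0 were higher and 2 lower on each diet, Ceacam1 and Cldn2 (median log2 fold change -0.00399 on SD and 0.0181 on HFD). The Ceacam1 call ended in 7 of 11 alternatives on SD and 4 of 11 on HFD, without either HFD knockout among them. The claudin gene Cldn2, which encodes a pore-forming tight junction protein, fell from 179 ± 17.5 to 57.9 ± 2.68 CPM on SD (n = 3 and 3, log2 fold change -1.63, SE 0.16, edgeR adjusted p = 6.36e-05). On HFD it fell from 148 ± 32.2 to 69.5 ± 1.72 CPM (n = 4 and 2, -1.09, SE 0.17, adjusted p = 0.00208).

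Serpine2 was the member with the highest CPM in controls, so that it was raised rather than switched on. It stood at 12.5, 8.84 and 10.4 CPM in SD controls and 88.0, 77.7 and 80.8 CPM in SD knockouts, 7.76-fold by the fitted log2 fold change of 2.96 (SE 0.27). Over all SD alternatives and left-out libraries that value stayed between 2.85 and 3.09. On HFD it stood at 19.1, 10.3, 9.04 and 10.1 CPM in controls and 22.6 and 30.8 CPM in knockouts (1.12, SE 0.23), with HFD control 1 close under HFD knockout 1. Without HFD control 1 the difference was 1.46, and the other controls lay within 9.04 and 10.3 CPM. Without HFD knockout 2 the difference was 0.88.

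Other serpins showed no rise that passed. Of 8 tested serpin and plasminogen genes 3 fell on SD (Plg, Serpinc1 and Serpinf2, which encode plasminogen, antithrombin and antiplasmin), and 0 rose. On HFD 0 passed (2 at an unadjusted p under 0.05, 0 with DESeq2, 1 lower without HFD control 1). Their median log2 fold change was -0.30 on SD and -0.13 on HFD. Without SD knockout 3, 0 of 8 passed on SD, and without SD control 3 or SD knockout 2 there was 1. Fibroblasts also make protease nexin-1. The summed level of 14 stellate cell and fibroblast markers was 375 to 442 CPM in SD controls and 502 to 590 CPM in SD knockouts, and 313 to 453 and 458 to 529 CPM on HFD, where HFD control 1 was the highest control. Of the 12 tested 0 passed in the main edgeR fit on either diet (5 and 3 at an unadjusted p under 0.05), and Timp1 was at 0 in SD controls. On SD 2 were higher with the replicate block, and 1 with no filter, only the groups compared or DESeq2. On HFD 1 was higher with no filter or without HFD control 1, and 0 with DESeq2. Cholangiocyte markers summed to 64.7 to 71.1 and 83.3 to 225 CPM on SD and overlapped on HFD. Of the 6 tested 0 passed on either diet in the main fit. Without HFD control 1, 2 of 3 tested were higher on HFD, and RLE normalization, no filter and DESeq2 each called 1. On SD no filter and only the groups compared each called 1 higher. Endothelial markers overlapped on SD and stood at 249 to 300 and 313 to 319 CPM on HFD. The part of these cell types in these results was not tested. In bulk RNA more cells of a type and more RNA per cell cannot be told apart.

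**Figure D2:**
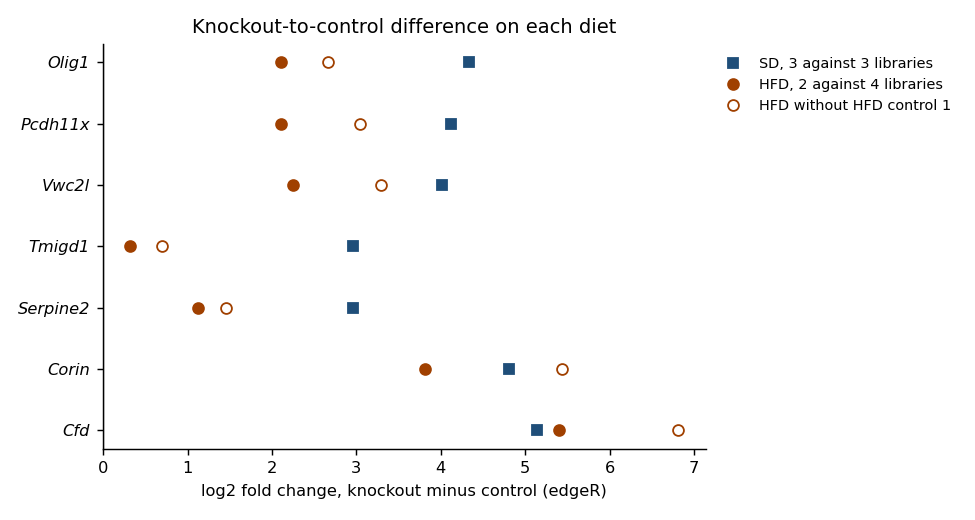
Log2 fold change of knockouts over controls (x axis) for the 7 members (y axis) on SD (squares), on HFD (filled circles) and on HFD without HFD control 1 (open circles). Leaving out HFD control 1 moves every member further from 0 on HFD, most of all Corin (3.81 to 5.43) and Cfd (5.40 to 6.81), and the fitted SD values of Corin and Cfd rest on 1 count in controls.

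Corin, the protease that processes natriuretic peptide precursors, had 1 count over the SD controls and 33 over the SD knockouts. In CPM these were 0.391, 0 and 0 in controls and 3.67, 4.80 and 3.48 in knockouts, a ratio of 32.8 (exact 95% interval 5.50 to 1335). Without SD control 1 the controls were at 0 and Corin was at least 7.58-fold higher, against 3 counts over the group. On HFD Corin was at 1.81, 0.124, 0.343 and 0.130 CPM in controls and 12.4 and 7.25 CPM in knockouts (log2 fold change 3.81, SE 0.55). That value was 5.43 without HFD control 1 and 3.40 without HFD knockout 1. The groups did not overlap on either diet, and HFD control 1 was again the control nearest to the knockouts.

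Nppa, the substrate gene, had a count in HFD knockout 2 alone (0.112 CPM), and the receptor gene Npr1 stayed between 2.33 and 5.07 CPM in all libraries. Of 8 tested genes of that list 0 passed on either diet with edgeR or DESeq2 (0 and 1 at an unadjusted p under 0.05 with edgeR, medians -0.02 and -0.07). Of 5 tested membrane-anchored proteases and inhibitors 0 passed with either tool (1 and 3 at an unadjusted p under 0.05, medians -0.27 and -0.29). Cardiomyocyte markers summed to at most 14.1 CPM in any library, with Myh6, Myh7 and Myl2 at 0 in every group.

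Cfd was the member with the largest HFD difference, ranked 1 of 12015 tested genes by log2 fold change. It stood at 3.09, 0.621, 0.343 and 0.390 CPM in HFD controls and 69.1 and 36.8 CPM in HFD knockouts (5.40, SE 0.60). The difference was 6.81 without HFD control 1 and 4.90 without HFD knockout 1. The HFD knockout mean was 17.2 times the level of HFD control 1 and 117 times the mean of the other 3 controls. On SD the picture differed from library to library. The controls had 0, 0.402 and 0 CPM, and the knockouts 11.7, 2.80 and 0 CPM, so that SD knockout 3 could not be told from controls. The ratio of 42 counts to 1 was 41.8 (exact 95% interval 7.10 to 1689), and 35 of the 42 counts came from SD knockout 1. Cfd was thus on in 2 of 3 SD knockouts at this depth.

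Of the adipocyte markers, Adipoq, Lep, Retn and Ucp1 had no count in any of the 12 libraries, and Plin1 had 0.139 CPM in HFD knockout 1 and none elsewhere. Cidea, a lipid droplet gene of the same list that was too low to be tested, had 17 counts in HFD knockouts and 3 in HFD controls, a ratio of 12.5 (exact 95% interval 3.60 to 66.3). Of those 17 counts 14 came from HFD knockout 2, the library with the lower Cfd level. The part of such cells in the Cfd level was not tested. Of 14 markers 5 were tested, of which Cidec rose on both diets and Car3 fell on SD. The Cidec call on SD ended without any 1 of the 6 SD libraries (adjusted p up to 0.175), that on HFD without HFD knockout 1 (0.0993), and that of Car3 without SD knockout 3 (0.0564). Mainly through Car3, a gene that liver also expresses, the summed level was lower in SD knockouts (745 to 1191 CPM) than in SD controls (1867 to 2793 CPM) and overlapped on HFD (1637 to 3315 and 1502 to 2578 CPM).

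Of 18 tested complement genes, 1 rose (C9) and 3 fell (C3, C8g and Cd59a) on SD, and 0 rose and 2 fell (C3 and C8g) on HFD (median log2 fold change 0.08 and -0.04). On SD 2 were higher with no filter, DESeq2 or only the groups compared, and 0 without SD knockout 2 or 3. On HFD 1 was higher with DESeq2, without HFD control 1 or without HFD control 3. With only the groups compared or the replicate block 0 passed on HFD. The C9 call ended without SD knockout 2 or 3, and the others but C3 in 1 to 7 of 11 alternatives. C3, the central component, fell from 11353 ± 2084 to 5501 ± 703 CPM on SD (n = 3 and 3, log2 fold change -1.05, SE 0.20, edgeR adjusted p = 0.00813). On HFD it fell from 8860 ± 2354 to 4226 ± 207 CPM (n = 4 and 2, -1.07, SE 0.22, adjusted p = 0.0163). The C3 call ended without SD knockout 3 on SD (adjusted p = 0.0544), and on HFD with only the groups compared, under the replicate block and without either knockout (up to 0.139).

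As a count, 6 of 7 members did not overlap between the SD groups, all but Cfd, and 6 of 7 did not overlap between the HFD groups, all but Tmigd1. Over all genes tested 10.3% lay wholly higher in knockouts on SD and 10.3% on HFD. Nothing is read from the count, because the members were chosen on these differences.

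Per kilobase of exon (GENCODE lengths of 0.922 kb for Cfd to 13.9 kb for Pcdh11x), the order of mean levels changed with diet. In SD knockouts Serpine2 was highest at 9.91 CPM per kb, followed by Olig1 at 6.90, Cfd at 5.23, Tmigd1 at 3.85, Vwc2l at 3.09, Corin at 0.738 and Pcdh11x at 0.628. In HFD knockouts Cfd led at 57.4 CPM per kb, ahead of Olig1 at 5.41, Serpine2 at 3.22, Corin at 1.82, Tmigd1 at 0.587, Pcdh11x at 0.421 and Vwc2l at 0.176. In SD controls Serpine2 was at 1.28 CPM per kb and no other member was above 0.468. This is an order of means. The SD of Cfd over the SD knockouts exceeded its step to each of the other members, so its place in the SD order is not resolved. Tmigd1 and Vwc2l, and Corin and Pcdh11x, also stood closer to each other in SD knockouts than the larger SD of the pair.

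The diets were also set side by side within controls and within knockouts. The members were named for their levels in these same 4 groups, so their diet differences are a description, too, and are given without p-values. HFD libraries were deeper than every SD library, so diet and depth cannot be told apart here. Between the diets 26.6% of all genes passed in knockouts and 30.1% in controls (edgeR, adjusted p under 0.05). How many members pass that threshold is not read as a result, because their levels in these groups chose them.

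In knockouts Vwc2l was at a log2 fold change of -4.07 (SE 0.72) on HFD relative to SD, and at -5.05 without HFD knockout 2. Tmigd1 was at -2.69 (SE 0.57) and Serpine2 at -1.62 (SE 0.25). For each of these 3 genes both HFD knockouts lay below every SD knockout. Cfd was at 3.40 (SE 0.66), at 5.33 without SD knockout 1 and at 2.81 without SD knockout 3, and Corin at 1.30 (SE 0.58). For Cfd and Corin both HFD knockouts lay above every SD knockout. Olig1 (-0.35, SE 0.47) and Pcdh11x (-0.57, SE 0.51) had values nearer to 0. In controls the differences were 1.87 (SE 0.84) for Olig1, -2.31 (SE 1.14) for Vwc2l and 0.22 (SE 0.27) for Serpine2. Whether the knockout effect differed between diets was not tested.

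**Figure D3:**
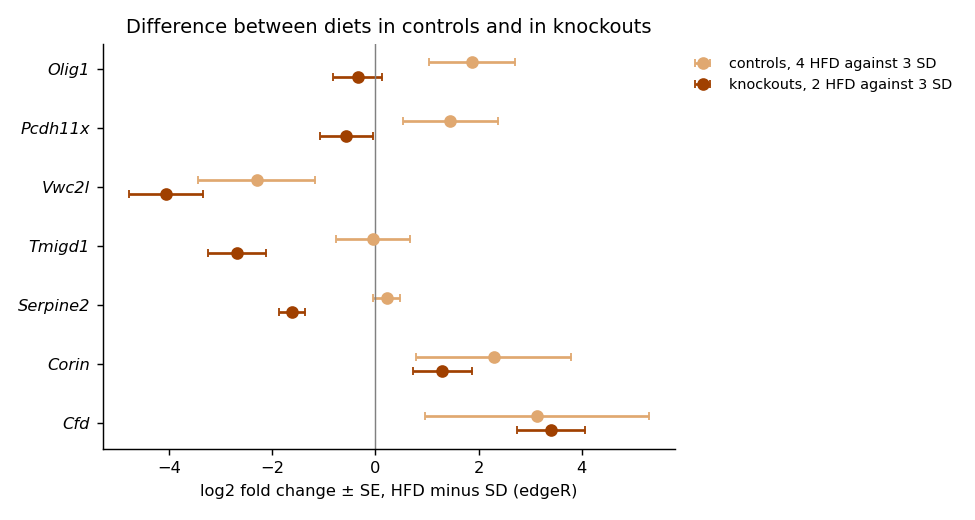
Log2 fold change of HFD over SD (x axis, bars are SE) for each member (y axis) in controls and in knockouts. In knockouts Vwc2l, Tmigd1 and Serpine2 lie below 0 and Cfd above it, while in controls the SE of Corin and Cfd is wide, since they had 1 count each in SD controls.

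Likeness of pattern was measured as the root-mean-square difference of log2 CPM over the 12 libraries after each gene was centred on its own mean, so that smaller is more alike. Corin was nearest to Cidec (0.48), which encodes a lipid droplet protein, and then to Ifi27l2b (0.73) and Gm3776 (0.74). Cfd was nearest to Themis (1.40), Cidec (1.47) and Plin4 (1.53), another lipid droplet coat gene. Cidec stood at 1.95, 1.61 and 0.305 CPM in SD controls, 15.0, 10.4 and 9.40 in SD knockouts, 7.53, 1.74, 1.83 and 1.95 in HFD controls, and 42.8 and 15.6 in HFD knockouts. Plin4 reached 38.3, 21.2 and 11.1 CPM in SD knockouts and 59.1 and 41.4 CPM in HFD knockouts, with 24.2 CPM in HFD control 1 against 7.10 to 8.19 CPM in the other HFD controls. Cfd, Cidec and Plin4 shared the library order among knockouts, with SD knockout 1 above SD knockout 3 and HFD knockout 1 above HFD knockout 2. Themis had 42.7 CPM in HFD control 1, near the 57.1 and 62.4 CPM of the HFD knockouts.

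**Figure D4:**
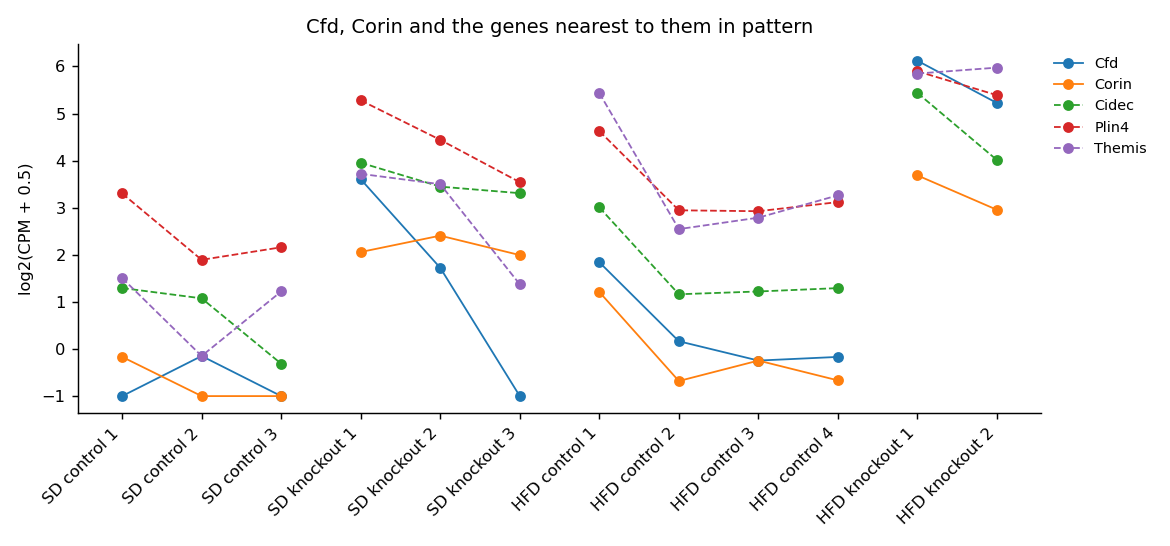
Log2(CPM + 0.5) (y axis) of Cfd and Corin (solid lines) and of the genes nearest to them in pattern (dashed) in each library (x axis), with lines joining libraries of a group. HFD control 1 is above the other HFD controls for each of the 5 genes, and Cfd, Cidec and Plin4 are lowest in SD knockout 3 among SD knockouts.

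Among 16 tested lipid droplet and PPARgamma-related genes, a list that holds Cidec and Plin4, 1 rose on SD and 4 rose on HFD, with 0 lower (median log2 fold change 0.08 and 0.36). The 4 were Cidec, Plin4, Pparg and Mogat1. Pparg, the nuclear receptor gene of fat storage, stood at 13.3 ± 4.62 CPM in the 4 HFD controls and 31.9 ± 1.86 CPM in the 2 HFD knockouts (log2 fold change 1.26, SE 0.23, edgeR adjusted p = 0.00844), and did not pass on SD (0.54, SE 0.29, adjusted p = 0.367). The HFD count was 0 without HFD knockout 1, 2 without HFD control 2 or HFD control 4 and with DESeq2, and 1 with only the groups compared. The SD count was 0 without any 1 of the 6 SD libraries. It was 2 with no filter, DESeq2, only the groups compared or the replicate block. Genes of the list were lower under some alternatives, 2 on SD with no filter on low counts, with only the groups compared or with the replicate block and 1 with DESeq2, and 1 on HFD with no filter or without HFD control 1. The Plin4 call ended in 5 of 11 alternatives. For Mogat1 only 5 alternatives gave a value, and the call ended in 2 of them, only the groups compared and the replicate block (adjusted p up to 0.114).

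Vwc2l was nearest to Ugt2b38 (1.03), a glucuronosyltransferase gene of a family of close paralogs whose counts are uncertain, then to Serpine2 (1.28) and Ugt2b37 (1.39). Tmigd1 was nearest to 2410089E03Rik (0.40), Ugt2b37 (0.55) and Prrg4 (0.55). Ugt2b38 stood at 29.7, 59.6 and 98.9 CPM in SD knockouts, against 4.88 to 10.9 CPM in SD controls, and at 5.14 and 26.9 CPM in HFD knockouts. 2410089E03Rik had 20.3, 30.0 and 98.9 CPM in SD knockouts and 9.10 to 15.3 CPM in all HFD libraries. For Tmigd1, Vwc2l, Ugt2b38 and 2410089E03Rik the highest SD knockout was library 3, which for Cfd was the lowest. Serpine2 was nearest to Nxpe2 (0.52), Tmigd1 (0.56) and Tes (0.58), and Nxpe2 was at 168, 169 and 170 CPM in SD knockouts against 40.0 to 54.3 CPM in SD controls.

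**Figure D5:**
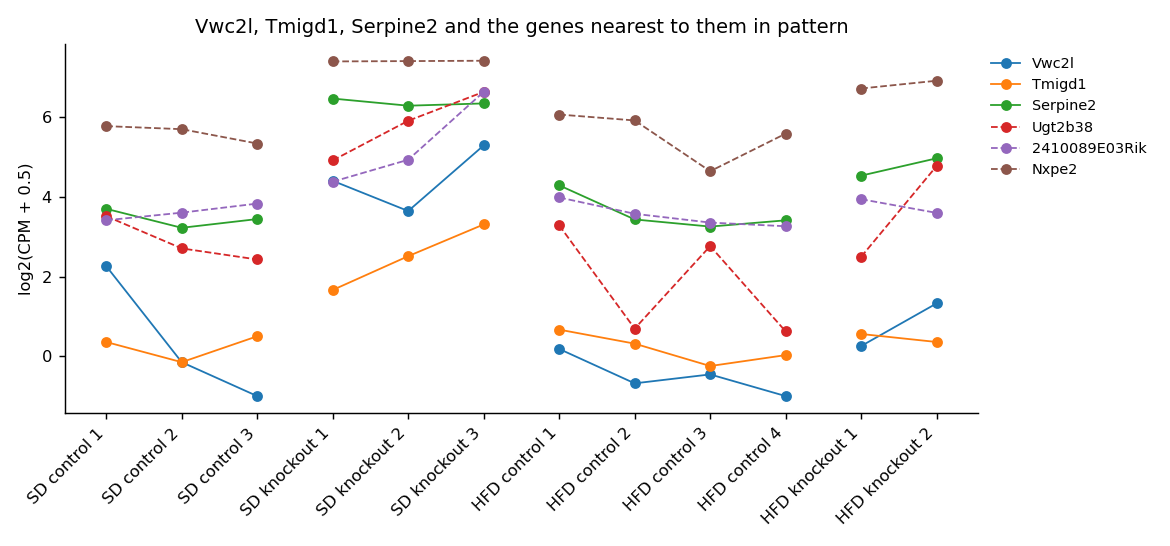
Log2(CPM + 0.5) (y axis) of Vwc2l, Tmigd1 and Serpine2 (solid lines) and of genes near to them in pattern (dashed) in each library (x axis). SD knockouts are above SD controls for each of the 6 genes, and Vwc2l and Tmigd1 are near the bottom in HFD knockouts.

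Olig1 was near to Pax8 (0.83) and Abcb1b (0.87). Abcb1b, which encodes a multidrug efflux transporter, was at 0.391, 1.61 and 1.83 CPM in SD controls and 5.00, 7.60 and 16.7 CPM in SD knockouts, then 1.63, 1.49, 2.40 and 0.910 CPM in HFD controls and 7.36 and 4.46 CPM in HFD knockouts. Pcdh11x was nearest to 2 other members, Serpine2 (0.72) and Corin (0.75), and then to Fsd2 (0.77). These distances describe the 12 libraries and were computed with the member among the data that chose it.

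In RefSeq gene order the nearest coding genes include Ifnar2 beside Olig1, Cpd and Blmh beside Tmigd1, Mrpl44 beside Serpine2, Commd8 and Nfxl1 beside Corin, and Med16 beside Cfd. Of the 14 neighbours 9 were tested, and 0 passed in either knockout comparison with edgeR. The neighbours of lowest adjusted p were Nap1l3, beside Pcdh11x, with 0 counts in SD controls and 0.667, 1.20 and 1.04 CPM in SD knockouts (adjusted p = 0.0684), and Bard1, beside Vwc2l (SD adjusted p = 0.0735). Med16, which follows Cfd, was at 6.00, 6.80 and 5.92 CPM in SD knockouts and 9.59 and 14.5 CPM in HFD knockouts, against 5.49 to 7.23 and 7.82 to 12.8 CPM in controls. An annotated opposite-strand transcript overlaps exons of Olig1 (Gm15966) and of Corin (Gm20647), and since a strand setting for counting is not given in the sources used here, reads of the partners cannot be told apart.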

How the data were processed

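Whole-gene read counts were deposited by the authors as 1 table per library, unnormalized. The mm9 build, TopHat2 2.1.0, DESeq2 1.14.1 and HTSeq are named in the submitters' processing notes. No source used here states the counting options. Groups were taken from the labels. Counts of the 12 libraries (2371167 to 10875478 per library) were fitted together in edgeR 4.0.16 (R 4.3.3) with 4 group means, TMM normalization, filterByExpr (minimum count 10) and the quasi-likelihood test, two-sided, with Benjamini-Hochberg adjustment over 12015 genes. CPM are on the normalized library sizes. The members and the gene lists were chosen with earlier results of these data known.

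Named besides the members were Nr5a2, the 3 genes nearest to each member in log2 CPM (prior count 2), up to 4 genes of each list with the smallest p past an adjusted p of 0.05, and neighbouring coding genes. Low genes of these lists, such as Vwc2, Nppa and Npr1, were chosen after their values were seen. Alternatives were RLE normalization, no filter, DESeq2 1.42.0, only the groups compared, a replicate block and leaving out each library, and applying them to the list genes was chosen after seeing the data. Exact intervals and the floor of 3 counts cover counting error only. The fit was also run on simulated counts with known fold changes, and the outcome is not reported here. Those changes were smaller than the SD differences of the members. Exon lengths are from GENCODE M21 (GRCm38), to which 94.5% of symbols matched, and promoter windows are RefSeq's without the bases after the start. Some genes that these rules name are not reported here.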

Additional observations from a re-analysis of the deposited data

Results flagged for a closer look

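For 3 of the 7 members the value of HFD control 1 stood far from the other HFD controls, by the gap to the nearest library over the range of the 4. Serpine2 was at 19.1 CPM there, with the nearest control at 10.3 CPM (gap over range 0.874). Corin was at 1.81 CPM, with the nearest at 0.343 CPM (0.870). Cfd was at 3.09 CPM, with the nearest at 0.621 CPM (0.899). Chance flags about 1 in 20 groups of this size, but that rate does not hold for genes chosen on these same libraries. The 7 groups examined were those of the members, and the rule was not run over all genes. The 3 values come from 1 library, so they are not independent of each other. Nothing is read from their number.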

How the results depend on the processing

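The knockout-to-control differences of the members stayed positive under every alternative that could be computed. The members were chosen as higher in these same knockouts, so that sign was largely fixed in advance. For Tmigd1 on HFD the log2 fold change was as low as 0.11, without HFD control 3. Under the filter for only the groups compared, some members fell out and gave no value. Genes called between SD knockouts and controls numbered 526, and 220 to 498 with 1 library left out. On HFD they numbered 325, with 518 without a filter on low counts, 127 with only the groups compared, and 85 (without HFD knockout 1) to 602 (without HFD control 1). Between the diets in knockouts 3196 genes were called, and 1978 to 2733 with 1 library left out. Calls of members between the diets are given only to show how they move with the processing. Nothing is read from their number, because the members were chosen on their levels in these same groups. Members called between the diets in controls numbered 0. It was 1 with no filter on low counts (Olig1) or the replicate block (Cfd), and 0 to 1 with 1 library left out. In that comparison the log2 fold change reversed for Vwc2l (-3.34 to 0.63 with 1 library left out, the latter without SD control 1), for Serpine2 (-0.10 without HFD control 1, to 0.36) and for Tmigd1, which took 0.12 with the replicate block, 0.02 and 0.23 without SD control 1 and 3, 0.17 and 0.06 without HFD control 3 and 4, and -0.41 without HFD control 1. The cause was not tested. Deviations of libraries with the same replicate number had r from -0.04 to 0.12 (15 pairs, 1 over 0.1). Those with different numbers had r from -0.13 to 0.13 (38 pairs, 2 over 0.1). Whether the number marks a pairing is not settled by this, since deviations were taken from means of 2 to 4 libraries. With the replicate block 595 genes were called on SD and 227 on HFD. Depth limits the SD libraries most, and Corin and Cfd had 1 count each over the SD controls.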
